A study of Mus musculus with 12 samples.

Results

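The ATF4 and C/EBP stress response genes described here are Atf4, Atf5, Ddit3, Ddit4, Trib3, Chac1, Asns, Sesn2, Cebpb and Cebpg, chosen by name. They were chosen with earlier results of these data known. Their names matched 11 rows of the 54532 in the count table. A second Ddit3 row (ENSMUSG00000116429) had 0 reads in all 12 libraries and was set aside, which left 10 genes. All 10 were among the 12766 genes with enough reads to test.

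The samples were N9 cells, an immortalised mouse line of microglia, the macrophages of the brain. Control medium held 3 mM glucose and 5 mM fructose with dialysed serum. The 4 groups of 3 libraries were control medium alone, control medium with lipopolysaccharide (LPS, a bacterial outer membrane component that activates Toll-like receptor 4), 15 mM glucose with LPS, and 15 mM fructose with LPS. Medium was applied for 18 h, and LPS was given at 1 µg/ml for a further 6 h. All groups therefore contained some glucose and fructose, no group had raised sugar without LPS, and the labels do not say whether 15 mM was the final concentration. N9 is a single line whose genotype the labels do not describe. Whether a group's 3 libraries came from separate cultures is not labelled, so the p-values may rest on technical spread alone.

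Total counts ran from 15453776 to 17956772 per library. The macrophage identity of the cells was checked on 15 markers, of which 11 had at least 10 counts in every library, among them Csf1r (6088 to 8027) and Spi1 (4804 to 7277). The microglial marker P2ry12 had 1 to 6 counts, C1qa 0 to 11 and Aif1 2 to 9, so these defining markers were nearly absent. The oligodendrocyte factors Olig2 and Sox10, the endothelial gene Cldn5 and the T cell gene Cd3e had no read, and the neuronal gene Rbfox3 had 0 to 6 counts and the astrocyte gene Gfap 0 to 10. Single genes of these lists were present all the same. Mbp (oligodendrocyte) had 443 to 672 counts, Map2 (neuron) 214 to 432 and Aldh1l1 (astrocyte) 296 to 534. Of 6 fibroblast genes, several varied widely between libraries. Col1a1 had 1 to 114 counts, Col1a2 0 to 79, Col3a1 0 to 81 and Dcn 2 to 35. The summed level of the 6 varied within groups, from 0.447 to 11.5 CPM (counts relative to library size) in control medium. It ran from 0.776 to 7.95 CPM with LPS, 0.798 to 8.8 with high glucose and 0.921 to 19.8 with high fructose. The cause was not tested.

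Cells under amino acid shortage, protein misfolding in the endoplasmic reticulum, viral double-stranded RNA or heme shortage phosphorylate the translation factor eIF2alpha. General protein synthesis then slows while the mRNA of the transcription factor ATF4 is translated more, so that ATF4 activity is set largely at translation and not only by its mRNA level. ATF4 pairs with C/EBP proteins at composite DNA sites and switches on genes for amino acid supply, and under lasting stress genes that restrain growth or favour cell death. In macrophages C/EBPβ, the product of Cebpb, is also a main factor of the inflammatory response to LPS.

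The composite site, the C/EBP-ATF response element, was searched for as TGATGNAAN, with N any base, on both strands in RefSeq promoters of build GRCm38.p6, taken as 250 bases before to 50 bases after each annotated start. All 10 genes had an entry, with 2 entries for Atf5. The motif occurred in 3 of the 10 genes, against 3.95% of the 32851 promoters in the table. The 10 genes were chosen by name as ATF4 and C/EBP stress response genes, so this share is not an independent result. All 3 stretches with a match are shown, whatever the values of their genes. Trib3 and Asns were called in no comparison, and Chac1 only in that of LPS with control medium. Each is written 5′ to 3′ on the strand of the gene, with the match in capitals.
Chac1, chr2:119351023-119351081, plus strand, before the start: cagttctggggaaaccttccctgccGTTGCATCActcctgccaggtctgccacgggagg
Asns, chr6:7693210-7693257, minus strand, ending at the base before the start: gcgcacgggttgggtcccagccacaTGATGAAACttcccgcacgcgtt
Trib3, chr2:152344029-152344057, minus strand, just past the start: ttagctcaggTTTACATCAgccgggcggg

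The match read in the motif's own direction was TGATGCAAC in Chac1, TGATGAAAC in Asns and TGATGTAAA in Trib3. In Chac1 and Trib3 the motif lay on the strand opposite to the gene and in Asns on the same strand. The C/EBP palindrome TTGCGCAA (0.183% of promoters), the cyclic AMP element TGACGTCA (1.79%) and the endoplasmic reticulum stress element (CCAAT, 9 bases of any kind, then CCACG, 0.119%) were found in 0 of the 10. A match is a description of letters in this window and was not tested as a binding site.

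Per gene length, the 10 genes spanned a wide range of levels. In control medium the deposited FPKM (fragments per kilobase, scaled to library depth) placed Cebpb highest at 147 ± 5.85 (mean ± SD, n = 3), Atf4 next at 123 ± 2.14, then Asns at 74.7 ± 2.82 and Atf5 at 23.5 ± 1.14. Sesn2 (8.36 ± 0.252), Cebpg (7.43 ± 0.154), Trib3 (6.58 ± 0.536) and Chac1 (4.25 ± 0.498) followed. Ddit3 (3.14 ± 0.492) and Ddit4 (3.09 ± 0.381) came last, and their libraries overlapped, unlike those of every other pair of neighbours in this order. With LPS the first 4 places stayed as they were, and the libraries of Trib3 (7.91 ± 0.581), Sesn2 (7.33 ± 0.609) and Cebpg (7.32 ± 0.664) overlapped each other. Ddit3 had 79 to 126 counts per library and Ddit4 63 to 108, so counting error weighed most on these 2 genes.

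**Figure D1:**
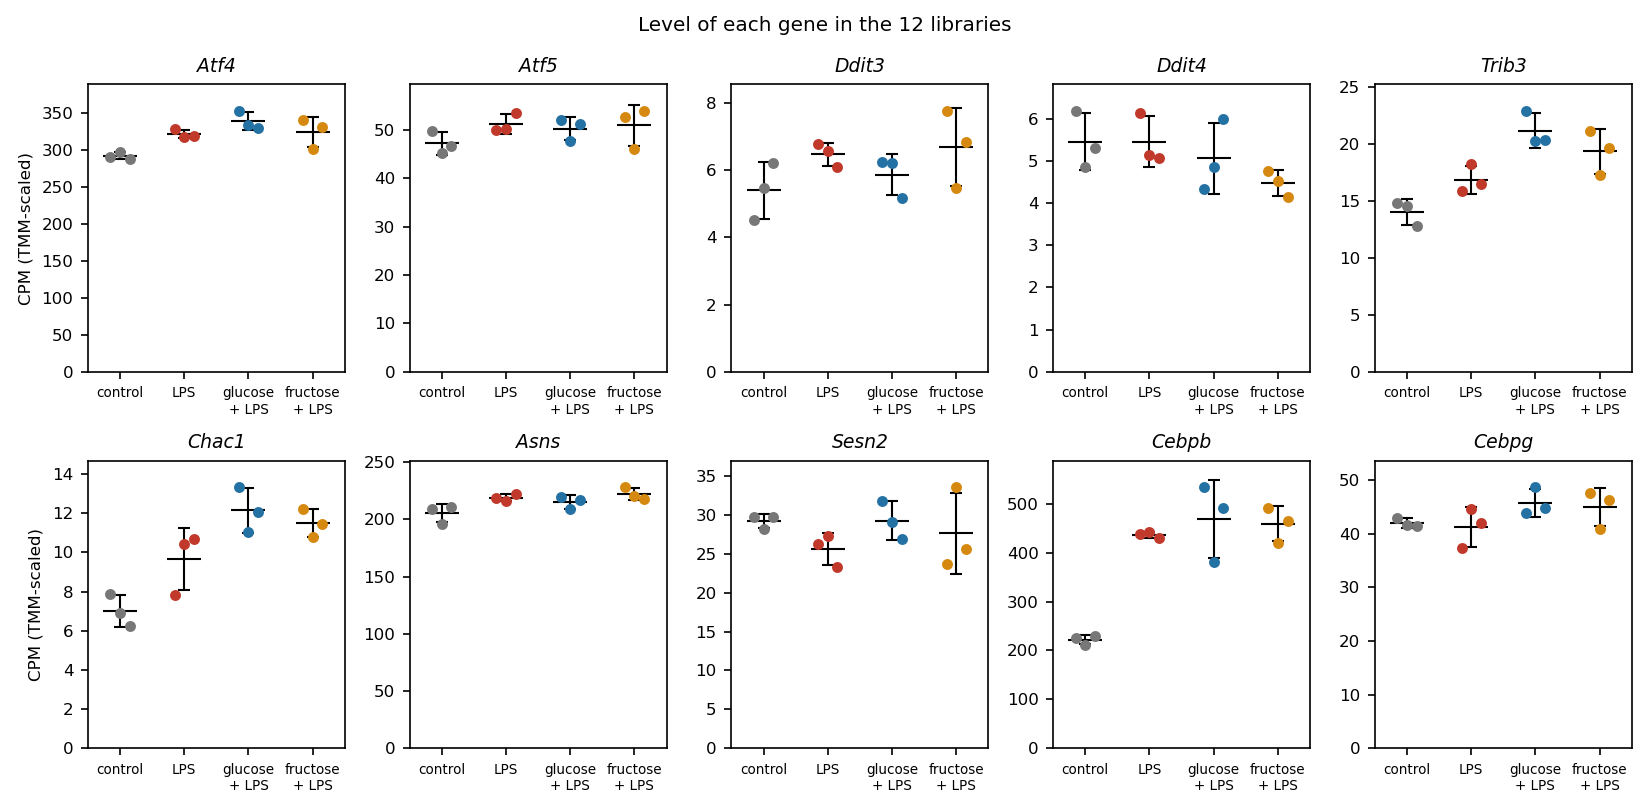
Level of each of the 10 genes in CPM (counts relative to library size, linear axis from 0) in the 12 libraries; points are libraries, black bars the mean ± SD of 3. Cebpb stands at 212 to 229 CPM in control medium and at 380 to 534 CPM in the LPS-treated libraries, while Asns lies between 196 and 228 CPM throughout.

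The first comparison set LPS in control medium against control medium without LPS and asked which of these genes the inflammatory stimulus changed. Cebpb, Chac1 and Atf4 were higher with LPS and none of the 10 was lower, at a Benjamini-Hochberg adjusted p below 0.05 from edgeR's quasi-likelihood test over all genes tested. Among all genes tested 28.8% were called, 15.2% higher and 13.6% lower, so 3 of 10 is close to the background. An unadjusted p below 0.05 was reached by 4 of the 10 genes and by 37.9% of all genes. The background split moved with the scaling of the libraries: 1941 genes were higher and 1736 lower here. Upper-quartile factors gave 1622 higher and 2292 lower, and library totals gave 1412 and 2951. The median log2 fold change of the 10 genes was 0.13, against −0.00 over all genes. In bulk RNA a change in the make-up of the culture and a change in RNA per cell cannot be told apart.

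Cebpb encodes C/EBPβ, a leucine zipper factor that activates cytokine and acute-phase genes. Its level was 226, 212 and 229 CPM in the control libraries and 437, 441 and 429 CPM with LPS. The groups lay far apart, and the 3 LPS libraries differed from each other by less than the control libraries did. The log2 fold change was 0.97 ± 0.09 (SE, adjusted p = 1.25e-07), a rise of 96.4%, and it passed in every fit that left out 1 library and under each of the other 9 settings. Of the exonic bases of Cebpb (ENSMUSG00000056501, chromosome 2 at 167688915 to 167690418), 20.7% overlap Tmem189 on the opposite strand, and no source used here states whether counting used strand. Tmem189 had 3117 to 3946 counts per library and rose by 0.33 ± 0.05 (adjusted p = 3.79e-05), and its part in the Cebpb counts was not tested.

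Chac1 encodes an enzyme that breaks down glutathione and is a sensitive target of ATF4. Its level was 7.85, 6.93 and 6.22 CPM in control medium and 7.82, 10.4 and 10.7 CPM with LPS. LPS library 1 lay within the control range and the other two lay above it, so the groups overlapped. The log2 fold change was 0.47 ± 0.14 (adjusted p = 0.0186), on 117 to 179 counts per library. The call was lost without control library 2 (adjusted p = 0.0518) or 3 (0.0924), without LPS library 2 (0.0793) or 3 (0.0892), and with limma on unfiltered FPKM (0.0568).

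Atf4 itself moved little. Its level was 291, 297 and 287 CPM in control medium and 327, 317 and 319 CPM with LPS, so the groups did not overlap. The log2 fold change of 0.14 ± 0.05 (adjusted p = 0.0423), a rise of 10.1%, sat just inside the threshold. It no longer passed without any one of the 6 libraries (adjusted p 0.0734 to 0.151), with upper-quartile factors (0.09, adjusted p = 0.197) or with library totals alone (0.05, adjusted p = 0.48), nor with no filter (adjusted p = 0.0661) or with limma (0.0764 to 0.0909).

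The remaining 7 genes did not pass. Trib3, a pseudokinase that feeds back on ATF4 and restrains AKT, was at 14.8, 14.6 and 12.8 CPM in control medium, and at 15.9, 18.3 and 16.5 CPM with LPS, a difference of 0.26 ± 0.10 (adjusted p = 0.0685) without overlap between the groups. Sesn2, whose product senses leucine and inhibits the growth kinase mTORC1, had a difference of −0.19 ± 0.11 (adjusted p = 0.226). The Sesn2 libraries with LPS, at 26.3, 27.3 and 23.2 CPM, lay below those without, at 29.8, 28.2 and 29.7 CPM. Ddit3, which encodes the death-promoting factor CHOP, stood at 0.26 ± 0.16 (adjusted p = 0.277) with overlapping groups. Atf5, a relative of ATF4 that is also controlled at translation, stood at 0.12 ± 0.07 (adjusted p = 0.235), and Asns, for the enzyme that makes asparagine, at 0.09 ± 0.05 (adjusted p = 0.143). Ddit4, an mTORC1 inhibitor induced by several stresses, stood at −0.00 ± 0.16, with a 95% interval from −0.35 to 0.35. Cebpg, whose product pairs with ATF4 on its target sites, stood at −0.02 ± 0.08, with an interval from −0.19 to 0.14. Groups did not overlap for 6 of the 10 genes, and for 44.3% of all genes tested.

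Several marker lists moved with LPS as well. The summed level of the 15 macrophage markers was 2117 to 2189 CPM in control medium and 2320 to 2378 CPM with LPS. The 8 neuronal markers, mostly Map2, went from between 22.4 and 23.9 to between 16.9 and 18.2 CPM, the 6 astrocyte markers from between 27.6 and 29.6 to between 21.1 and 24.7, and the 6 oligodendrocyte markers from between 33.1 and 39.3 to between 27.7 and 28.9. With raised sugar the macrophage markers stood below the LPS libraries, at 2112 to 2217 CPM with high glucose and 2243 to 2271 with high fructose. The oligodendrocyte markers stood above them, at 29 to 31.8 and 32.6 to 37.5, and the astrocyte markers stood below them with high glucose, at 18.9 to 20.5. The part of these lists in the comparisons with LPS and with either sugar was not tested.

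**Figure D2:**
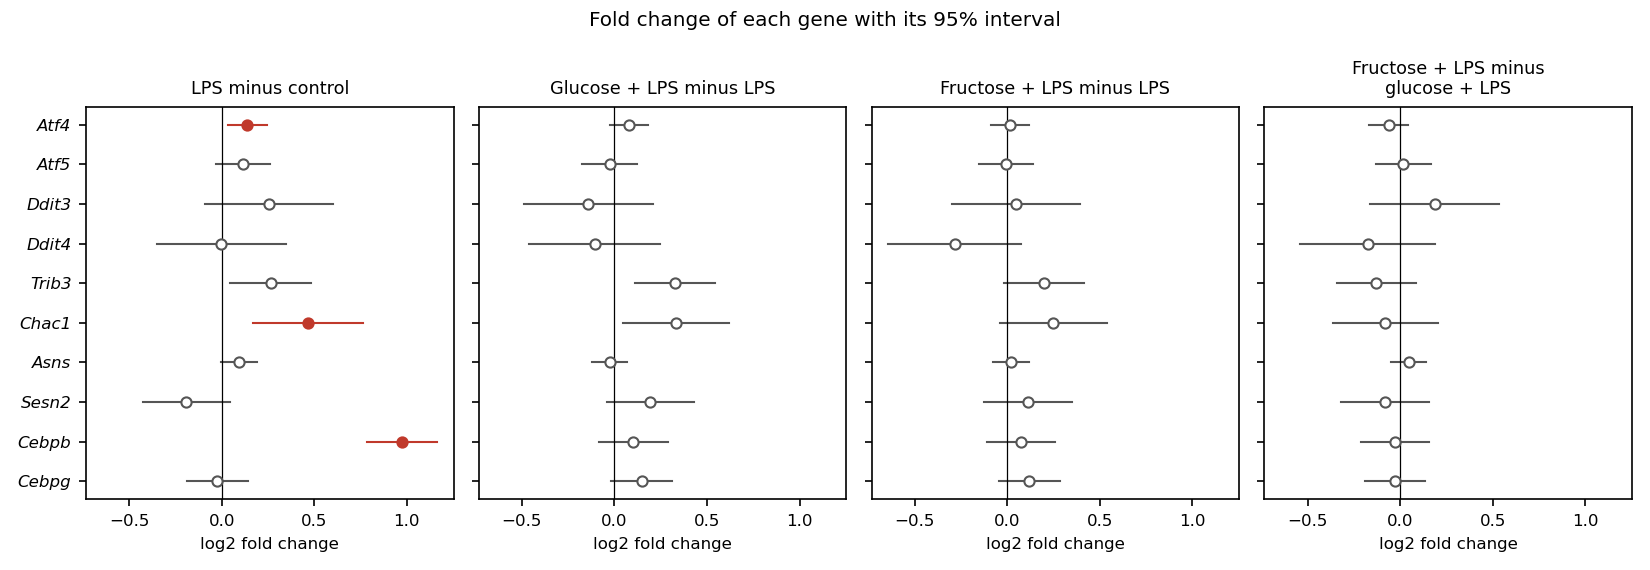
Log2 fold change of each gene (points) with its 95% interval (lines) in the 4 comparisons; filled red points passed the adjusted p threshold of 0.05. The 3 filled points, Cebpb at 0.97, Chac1 at 0.47 and Atf4 at 0.14, are all in the comparison of LPS with control medium, and no gene passed in the 3 comparisons that involve raised sugar.

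The next comparison asked what raised glucose changed in cells given LPS. No gene of the 10 was called, by edgeR, DESeq2 or limma, while 1.56% of all genes were called, 0.587% higher and 0.971% lower. An unadjusted p below 0.05 was reached by 2 of the 10, Trib3 and Chac1, and by 13.9% of all genes. Trib3 libraries with high glucose, at 22.9, 20.3 and 20.3 CPM, were all above those with LPS in control medium, and the difference was 0.33 ± 0.10 (adjusted p = 0.14). Chac1, at 13.3, 11.05 and 12 CPM, was likewise above every LPS library, with a difference of 0.33 ± 0.14 (adjusted p = 0.278). The third gene without overlap between the groups was Atf4 itself, at 353, 334 and 329.5 CPM, with a difference of 0.08 ± 0.05 (adjusted p = 0.53). Non-overlap held for 3 of the 10 genes and for 19.2% of all genes.

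Cebpb was uneven with high glucose. The libraries stood at 534, 380 and 490.4 CPM, on both sides of the LPS libraries, and the SD of 79.4 CPM compared with 6.09 CPM for LPS in control medium. The difference of 0.10 ± 0.09 (adjusted p = 0.678) ran from −0.00 without high-glucose library 1 to 0.23 without library 2. Mitochondrially encoded genes took 0.518% of counts in library 1, 0.699% in library 2 and 0.689% in library 3, and the part of this in the Cebpb values was not tested. For the other genes the differences with high glucose were 0.19 ± 0.11 for Sesn2, 0.15 ± 0.08 for Cebpg, −0.03 ± 0.07 for Atf5, −0.03 ± 0.05 for Asns, −0.14 ± 0.16 for Ddit3 and −0.11 ± 0.17 for Ddit4. The 95% interval for Asns, from −0.12 to 0.07, was the narrowest, and that for Ddit4, from −0.46 to 0.25, the widest.

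High fructose with LPS was compared with the same LPS libraries in control medium, so the glucose and fructose differences share their controls and are not independent. No gene of the 10 was called by edgeR, DESeq2 or limma, and 0 had an unadjusted p below 0.05, against 4.91% of all genes called (2.37% higher, 2.55% lower) and 15.5% with such an unadjusted p. Chac1 was again above every LPS library, at 12.2, 10.8 and 11.4 CPM, with a difference of 0.25 ± 0.14 (adjusted p = 0.417). Ddit4 lay below every LPS library, at 4.75, 4.53 and 4.14 CPM against 6.15, 5.13 and 5.08, a difference of −0.28 ± 0.17 (adjusted p = 0.479). These were the 2 genes of the 10 without overlap, as were 20.4% of all genes. Trib3 stood at 21.2, 17.2 and 19.7 CPM, a difference of 0.20 ± 0.10 (adjusted p = 0.385), and its library 2 fell within the LPS range.

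None of the other 7 genes passed with high fructose, and their libraries overlapped those of LPS in control medium. Cebpg stood at 0.12 ± 0.08, Sesn2 at 0.11 ± 0.11, Cebpb at 0.07 ± 0.09, Ddit3 at 0.05 ± 0.16, Asns at 0.02 ± 0.05, Atf4 at 0.01 ± 0.05 and Atf5 at −0.01 ± 0.07. Sesn2 depended on a single library, standing at 33.6 CPM in high-fructose library 2 and at 23.7 and 25.6 CPM in the others, and its difference was −0.05 without that library. The 95% interval for Atf4, from −0.09 to 0.12, was narrower than that for Ddit3, from −0.30 to 0.39.

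The 2 sugars were then compared directly, which tests whether their effects differed. No gene of the 10 was called by edgeR, DESeq2 or limma, 0 had an unadjusted p below 0.05, and 0 were without overlap, against 3.72% (1.84% higher, 1.88% lower), 15.6% and 17.9% of all genes. The differences, as high fructose minus high glucose, ran from −0.18 ± 0.17 for Ddit4 to 0.19 ± 0.16 for Ddit3. For Trib3 the difference was −0.13 ± 0.10 (95% interval −0.34 to 0.08) and for Chac1 −0.08 ± 0.13 (−0.36 to 0.20).

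Because Trib3 and Chac1 stood higher with either sugar, the mean of both sugar groups was compared with LPS in control medium in the same model, a comparison added after the values were seen. No gene of the 10 was called by edgeR, the one tool run here, against 3.94% of all genes (1.61% higher), and the 2 with an unadjusted p below 0.05 were these, against 14.9% of all genes. Chac1 was higher in 6 of 6 sugar libraries than in any LPS library (0.29 ± 0.12, adjusted p = 0.242), and Trib3 in 5 of 6 (0.26 ± 0.09, adjusted p = 0.135). The comparison was chosen because these genes stood higher, and the share of all genes with such counts was not computed. The counts of libraries are therefore a description only. With 1 library left out, the adjusted p of Trib3 ran from 0.0659 to 0.438 and that of Chac1 from 0.202 to 0.699.

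The genes were also compared with each other within groups, as deviations of each library from its group mean on the log2 CPM scale. Over 12 libraries the 45 pairs had a median Pearson r of 0.17, and 12 pairs exceeded 0.5. With 1 library left out the median ran from −0.0055 to 0.23. It was lowest without high-fructose library 1, where 7 pairs exceeded 0.5. Without high-fructose library 2 the median was 0.08 and 5 pairs exceeded 0.5. No within-group r was measured for pairs of other genes. The closest pair was Trib3 and Chac1 (r = 0.73, and 0.67 to 0.86 with 1 library left out), followed by Atf4 and Trib3 (0.70), Asns and Cebpb (0.68), and Atf4 and Ddit3 (0.67). Sesn2 had a negative r to all 9 other genes, down to −0.61 with Atf5 and −0.53 with Atf4, but this rested on high-fructose library 2. Without that library r was negative for 5 of the 9, −0.05 with Atf5 and 0.34 with Atf4. The r of Atf4 fell to 0.48 with Trib3 and to 0.36 with Ddit3. These values share libraries, depth and scaling, and they describe 12 libraries only.

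**Figure D3:**
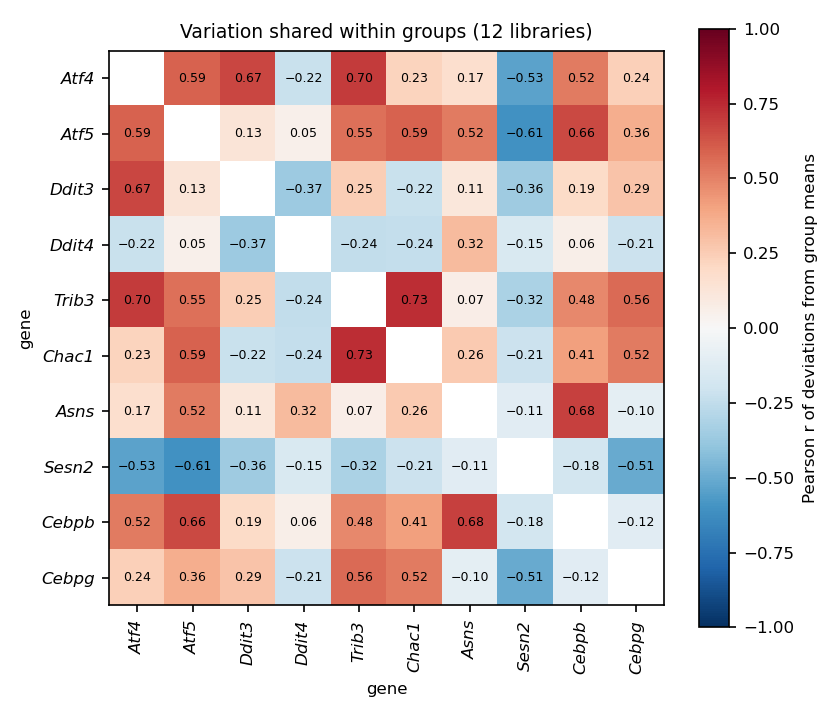
Pearson r between genes over the deviations of the 12 libraries from their group means (color scale from −1 to 1). The darkest red cell off the diagonal is Trib3 with Chac1 at 0.73. The row of Sesn2 is blue throughout, which rests on high-fructose library 2, since only 5 of its 9 values are negative without it.

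Library 2 of the high-fructose group often lay apart, and high-glucose library 1 was often the highest of its group. High-fructose library 2 was the lowest of its group for Atf4 (301 CPM against 340.4 and 331), for Atf5 (46.1 against 52.6 and 53.9), for Cebpb (420.3 against 491 and 465) and for Trib3, and the highest for Sesn2. Ddit3, Chac1 and Cebpg were lowest in that library too. High-glucose library 2 was the lowest of its group for Cebpb, Atf5 (47.6 against 52 and 51.1), Asns (209 against 220 and 217) and Chac1. In the same group library 1 was the highest for Atf4 and Trib3, and library 3 the lowest for Ddit3 and the highest for Ddit4. Mitochondrially encoded genes took 0.786% of counts in high-fructose library 2, against 0.564% and 0.728% in libraries 1 and 3, and the part of this was not tested.

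Over all 12 libraries, group differences included, the gene most like Cebpb among 9890 protein-coding genes with at least 50 counts on average was Tatdn2 (r = 0.989), then Znrf1 (0.987) and Dok7 (0.985). Chac1 was most like Prmt2 (0.963), Hmga1 (0.957) and Rcc1 (0.957). Trib3 was most like Bop1 (0.957), Tspan13 (0.955) and Cystm1 (0.955), and Cystm1 was also first for Atf4 (0.955). Cebpg had no such close counterpart, its first being Cmc1 (0.794). By the same measure Trib3 and Chac1 stood at 0.945 to each other.

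The other genes of the pathway were described by list, each with the count called out of those tested. These counts stand against 28.8% of all genes called with LPS (15.2% higher, 13.6% lower), 1.56% with high glucose, 4.91% with high fructose and 3.72% between the sugars. The lists were chosen with earlier results of these data known, so a list's share above these is not an independent result. The upstream list held eIF2alpha itself, its kinases and phosphatases, their regulators and the subunits of eIF2B. LPS changed 9 of these 15 genes, 6 higher and 3 lower, with a median of 0.10, against 28.8% of all genes called. With 1 library left out 4 to 6 were higher and 2 to 3 lower. Some of the higher calls were also lost with library totals alone. Eif2ak2, for the kinase PKR that senses double-stranded RNA and is induced by interferon, rose most, by 1.61 ± 0.06 (adjusted p = 8.2e-13), from 60.2 to 184 CPM. Ppp1r15a, for GADD34, which restores eIF2alpha, rose by 0.51 ± 0.09, and Impact, an inhibitor of the kinase GCN2, by 0.39 ± 0.08. Dele1, which relays mitochondrial stress, was lower (−0.29 ± 0.06). Lower too were the kinase genes Eif2ak3 (for PERK, −0.32) and Eif2ak4 (for GCN2, −0.26). Eif2ak3 passed in each of the 6 fits that left out 1 library, and Eif2ak4 in 3 of them. With high glucose 0 of 15 were called by edgeR, DESeq2 or limma, and 2 had an unadjusted p below 0.05. High fructose changed 1 of 15, Eif2ak2, which fell by 0.65 ± 0.06 (adjusted p = 2.38e-06) to 118 CPM and was also lower than with high glucose (−0.47 ± 0.06, adjusted p = 0.00015).

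The ATF6 and IRE1 branches of the unfolded protein response, which raise chaperones, had 2 of 19 genes higher and 6 lower with LPS (median −0.08), against 15.2% and 13.6% of all genes. With 1 library left out the higher calls came to 0 or 1, and 0 without control library 1 or 3 or LPS library 1 or 2, while 5 to 6 were lower. Herpud1 (−0.36 ± 0.08), Dnajc3 (−0.29 ± 0.05), Edem1 (−0.27 ± 0.05) and Sel1l (−0.20 ± 0.05), which serve folding or the removal of misfolded proteins, were lower. With either sugar 0 of 19 were called by edgeR, DESeq2 or limma, and an unadjusted p below 0.05 was reached by 3 with high glucose and 4 with high fructose. Between the sugars 2 were higher with fructose, Xbp1 (0.21 ± 0.05) and Herpud1 (0.34 ± 0.08), and both calls were lost without high-glucose library 2 or 3 or high-fructose library 1, that of Xbp1 also without high-fructose library 2. DESeq2 called 2 of the list and limma 0, and both calls were lost with only the 2 groups fitted.

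The classical amino acid targets of ATF4 did not move as 1 block. Of 21 cytosolic tRNA synthetase genes, which charge tRNAs, 1 was higher with LPS (Nars, 0.20 ± 0.04), with a median of 0.07, and 0 were called with either sugar by edgeR. An unadjusted p below 0.05 was reached by 6 with high glucose and 3 with high fructose, where DESeq2 called 0 and 1 and limma 0 in both. Of 9 amino acid transporters 3 were higher and 1 lower with LPS (median 0.10), against 15.2% and 13.6% of all genes. The cystine transporter gene Slc7a11 rose by 2.31 ± 0.08, from 37.5 to 186 CPM, its partner Slc3a2 by 0.47 ± 0.04 and the arginine and lysine transporter gene Slc7a1 by 0.19 ± 0.04. Slc1a4 was lower (−0.49 ± 0.16), a call lost without any one of the 6 libraries. High glucose changed 1 of 9, Slc7a11, which fell by 0.58 ± 0.08 (adjusted p = 0.000637) to 125 CPM. High fructose raised 3 of 9 (median 0.16, against 2.37% of all genes higher), the glutamine transporter gene Slc38a2 by 0.29 ± 0.05, Slc1a5 by 0.16 ± 0.04 and Slc7a1 by 0.16 ± 0.04. Of these, Slc38a2 passed whichever library was left out, Slc7a1 only without high-fructose library 3, and Slc1a5 in none of the 6 such fits. Between the sugars 1 of 9 was called, against 3.72% of all genes. It was Slc7a11, higher with fructose (0.44, adjusted p = 0.00224), and it passed whichever library was left out.

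Among 14 genes of serine, one-carbon and cysteine metabolism, LPS raised 1 and lowered 4 (median −0.06), a share called near the 28.8% of all genes. Cth, which makes cysteine from cystathionine, rose by 0.60 ± 0.05, and Pck2 (−0.23 ± 0.06) and Aldh18a1 (−0.19 ± 0.04), which serves proline synthesis, were lower. Shmt2 (−0.13 ± 0.04) and Aldh1l2 (−0.22 ± 0.07) were also lower, and each of these calls was lost in 4 of the 6 fits that left out 1 library. Aldh1l2, a mitochondrial folate enzyme gene, was the single gene of this list called with each sugar, at −0.65 ± 0.08 with high glucose and −0.44 ± 0.08 with high fructose. Its level was 40.3 CPM in control medium, 34.7 CPM with LPS in control medium, 22.2 CPM with high glucose and 25.6 CPM with high fructose. Genes on the opposite strand cover 14.1% of its exonic bases.

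Of 25 other genes listed as targets of ATF4 or CHOP, 11 were higher and 2 lower with LPS (median 0.17), against 15.2% and 13.6% of all genes. Sqstm1, for the autophagy receptor p62, rose by 1.20 ± 0.04, the death-promoting Bcl2l11 by 1.11 ± 0.05, Atf3, a repressor induced by stress, by 0.88 ± 0.06, and Ndrg1 by 0.73 ± 0.08. High glucose raised Txnip (0.54 ± 0.05), which is also a glucose-sensing gene, and lowered Bcl2l11 (−0.22 ± 0.05, a call lost without any one of the 6 libraries). High fructose raised Jdp2 (0.72 ± 0.13), Ndrg1 (0.61 ± 0.08) and Sqstm1 (0.29 ± 0.04) and lowered Atf3 (−0.44 ± 0.06, 144 to 106 CPM). Between the sugars 3 of 25 were higher with fructose and 1 lower, against 1.84% and 1.88% of all genes. Sqstm1 (0.31, adjusted p = 5.2e-05), Ndrg1 (0.42, adjusted p = 0.00298) and Txnip (−0.50, adjusted p = 2.94e-05) passed whichever library was left out. The call of Bcl2l11 (0.21, adjusted p = 0.0294) was lost without any one of the 6 libraries. Overlap with genes on the other strand covered 17.3% of the exonic bases of Sqstm1 and 19.4% of those of Txnip.

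Among 20 relatives in the C/EBP and CREB/ATF family outside the 10 genes, LPS raised 6 and lowered 4 (median 0.01), against 15.2% and 13.6% of all genes. Atf3, Jdp2, Atf6 and Atf6b also belong to lists above, so some of those raised are counted there too. Cebpd, like Cebpb an acute-phase C/EBP factor, rose by 1.12 ± 0.12 from 13.9 to 30.3 CPM, with 15% of its exonic bases overlapped on the other strand. Nfil3, a bZIP repressor, fell by 0.76 ± 0.11, and Batf2, an interferon-induced factor, rose by 2.59 ± 0.31 from a low level of 0.569 CPM. With high glucose 0 of the 20 were called by edgeR or limma and 1 by DESeq2, and 5 had an unadjusted p below 0.05. High fructose changed 2, the Atf3 and Jdp2 already given.

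**Figure D4:**
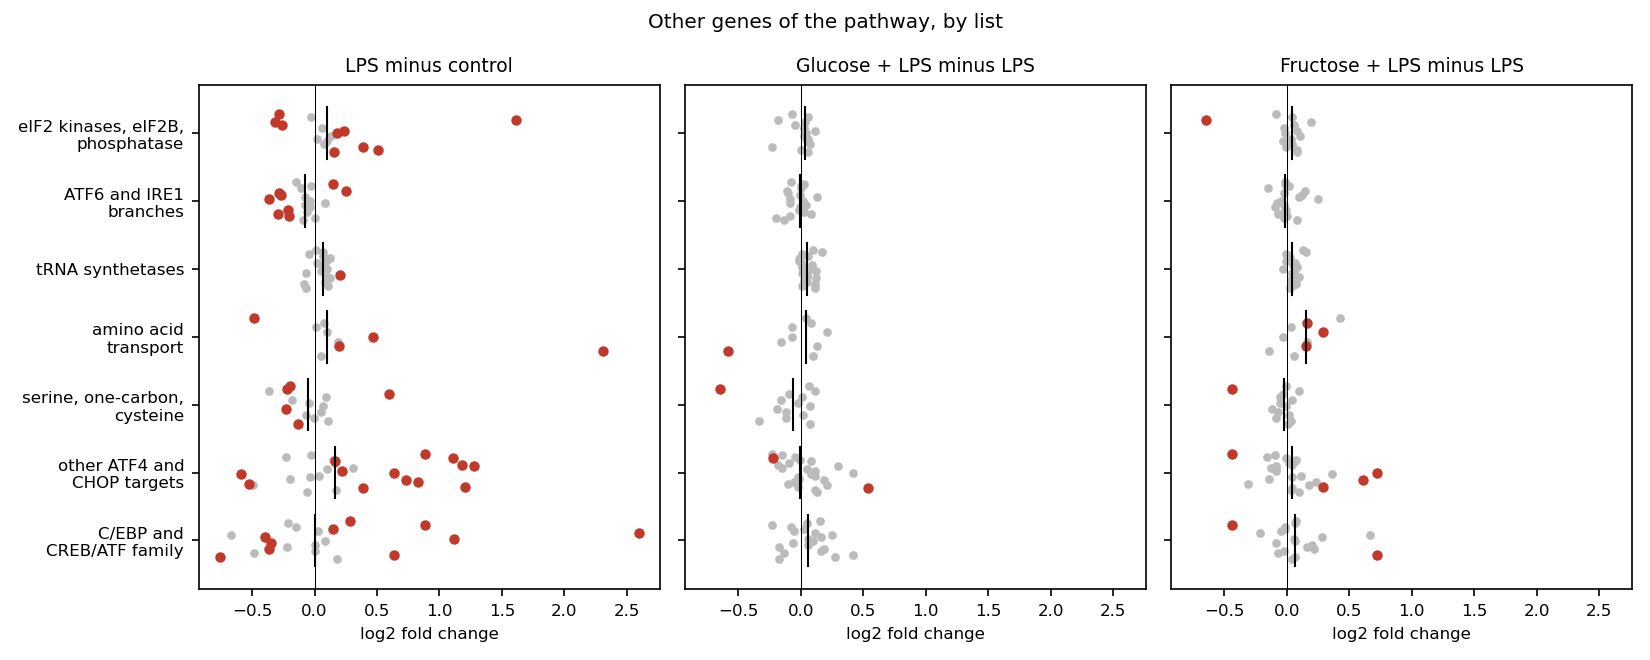
Log2 fold change of each tested gene in 7 pathway lists (points, red where called at an adjusted p below 0.05) with the list median (black bars), in 3 comparisons. With LPS the red points lie on both sides of 0, from −0.76 to 2.59, and with either sugar few points are red.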

How the data were processed

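RNA from 12 N9 samples in 4 labelled groups was sequenced. The authors deposited a table of raw counts and a table of FPKM. The submitters' processing notes name featureCounts 1.5.0-p3 and mm10. The deposited FPKM equalled counts divided by gene length and 1 constant per library within 1.18e-07% for genes with at least 200 counts. No source used here gives the aligner, annotation release or strand setting. The members and lists were chosen with earlier results of these data known.

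Counts were fitted with edgeR 4.0.16 in R 4.3.3 (filterByExpr, TMM scaling, quasi-likelihood F test, 1 coefficient per group, all 12 libraries, 8 residual degrees of freedom), with Benjamini-Hochberg adjustment over 12766 genes at a threshold of 0.05. CPM are TMM-scaled. The fitting code was tested on simulated data. Alternatives were DESeq2 1.42.0, limma 3.58.1 on log2 FPKM with pseudocounts of 1 and 0.1, 2 other scalings, no filter, only the groups compared, a replicate block, and each library left out in turn. The 10 genes were named whatever their result. Of each pathway list, up to 4 called genes with the smallest adjusted p were named per comparison, and lists with at most 5 called genes could be named in full, which was decided after their values were seen. Eif2ak3 and Eif2ak4 were named besides these, as eIF2alpha kinase genes also called with LPS. Similar transcripts and exon overlap were measured on GENCODE M21 (GRCm38) with BLAST 2.17.0+. At 98% identity over at least 75 bases, the largest share of any of the 10 genes' longest transcripts matching another gene was 21.3%, for Cebpb and the overlapping Tmem189.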

Additional observations from a re-analysis of the deposited data

How the results depend on the processing

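The 3 genes called with LPS were 1 with limma on unfiltered log2(FPKM + 1) (Cebpb), and 1 to 2 with 1 library left out. The counts of 0 with either sugar and between sugars were 0 under every setting run, leave-one-out included. Over all genes, high glucose called 199 genes, against 427 with no filter, 391 with the replicate block, 328 with DESeq2, 101 and 69 with limma on log2(FPKM + 1) and log2(FPKM + 0.1), and 67 to 177 with 1 library left out. High fructose against high glucose called 475, against 247 with only those 2 groups fitted, 735 with the replicate block, 301 with limma on log2(FPKM + 0.1) and 332 to 385 with 1 library left out. The causes were not tested.

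No label says that a replicate number marks a shared culture or day, and the numbers were not taken as pairs. Deviations of same-numbered libraries correlated above 0.1 in 5 of 18 pairs (−0.19 to 0.24), and other pairs ran from −0.23 to 0.19. Same-numbered libraries of high glucose and high fructose stood at −0.19, −0.07 and −0.08. Of the 12 libraries 7 correlated best with their own number. The number to be met without any pairing was not computed, so this is a hint from the data only. Library 1 had the lowest mitochondrial share of counts in each group (0.618%, 0.581%, 0.518% and 0.564%). With the block 3 of the 10 genes were called with LPS and 0 in the other comparisons.

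Signs turned for uncalled genes. Ddit4 with LPS was 0.0069 with only the 2 groups fitted, 0.00068 with limma on log2(FPKM + 1) with or without the filter and 0.0012 with a pseudocount of 0.1. With 1 library left out it ran from −0.094 to 0.094, and Cebpg with LPS from −0.082 to 0.046. With high glucose Atf5 ran from −0.054 to 0.011 and Cebpb from −0.0039 to 0.23. With high fructose Atf4 ran from −0.026 to 0.064, Atf5 from −0.052 to 0.058, Ddit3 from −0.080 to 0.18, Asns from −0.0036 to 0.034 and Sesn2 from −0.054 to 0.21. Between the sugars Atf5 ran from −0.025 to 0.085, Sesn2 from −0.25 to 0.015, Cebpb from −0.16 to 0.078 and Cebpg from −0.075 to 0.036. Counting error limits Ddit3 and Ddit4 most. Upper-quartile factors and library totals moved the median of all genes with LPS by −0.05 and −0.09.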

Other observations

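Of 18 genes of the mTORC1 pathway, on which the products of Ddit4 and Sesn2 act, LPS raised 2 and lowered 3 (median −0.06), a share close to the 28.8% of all genes called, so the count shows nothing about the list. Castor2, for an arginine sensor of the pathway, fell by 0.99 ± 0.07 from 95.8 to 48.3 CPM. Depdc5, for a subunit of the GATOR1 inhibitor complex, was lower by −0.41 ± 0.08 and Eif4ebp2, for an inhibitor of translation, by −0.27 ± 0.06. These 3 passed whichever library was left out. The other 2 called, Rraga and Akt1s1, lost their calls in 3 and 5 of the 6 such fits. With either sugar 0 of the 18 were called by edgeR or limma, 2 had an unadjusted p below 0.05 with each, and DESeq2 called 2 with high glucose and 0 with high fructose. Between the sugars 1 was called, Castor2, higher with fructose (0.30, adjusted p = 0.0301), and it passed in 2 of the 6 fits that left out 1 library.

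Of the relatives of Trib3, Sesn2, Ddit4 and Chac1, 3 of 6 had enough reads to test. Sesn1, a sestrin best known as a p53 target, fell by 0.83 ± 0.11 with LPS from 22.2 to 12.5 CPM, whereas Sesn2 did not pass. Trib1, which promotes the breakdown of C/EBP proteins, rose by 0.36 ± 0.10 from 19.2 to 24.6 CPM, a call lost without control library 2. With either sugar 0 of the 3 were called by edgeR, DESeq2 or limma, and an unadjusted p below 0.05 was reached by 0 with high glucose and 1 with high fructose.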
